A study of Mus musculus with 6 samples.

Results

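The class III POU genes Pou3f1, Pou3f2, Pou3f3 and Pou3f4 encode transcription factors that pair a POU-specific domain with a POU homeodomain and bind octamer-like DNA, often beside a Sox protein. They belong to the same family as Oct1, the product of Pou2f1, and Oct4, the product of Pou5f1. Pou3f1, also called Oct6, is known from the epiblast before gastrulation, from Schwann cells and from epidermis. Pou3f2, Pou3f3 and Pou3f4, also called Brn2, Brn1 and Brn4, are known mainly from neural progenitors and neurons. The genes were taken as the rows carrying these symbols, which gave 4 of the 31053 genes in the deposited tables. They were read in 7096 of 11046 cell barcodes, namely those that showed 1000 genes or more and no more than 10% of UMIs from mitochondrial genes. A UMI, or unique molecular identifier, marks 1 captured RNA molecule.

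The cells were mouse embryonic stem cells (ESC) labelled Oct1_cKO, written cKO here for conditional knockout, or Parental, and each genotype was sampled as ESC and at day 3 and day 6 of differentiation. Differentiation was directed towards mesoderm on 0.1% gelatin, with the growth factor Bmp4 for 2 days and then Rspo3, an enhancer of Wnt signalling, with LDN-193189, an inhibitor of BMP receptors, for 4 days. Each of the 6 groups was 1 library of a 10x Genomics 5′ kit, so there was no replicate and no test between groups. The labels used here do not give the Cre, the deleted exons, or whether a genotype was 1 clone. All intervals below are 95% intervals of counting error alone.

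The cKO libraries held 530, 1026 and 1650 kept cells at ESC, day 3 and day 6, and the parental libraries held 1396, 948 and 1546. Kept cells summed to between 38935937 and 84128627 UMIs per library, and no pair of libraries shared more than 2 cell barcodes. Pou2f1, the targeted gene, measured 21.5, 12.6 and 16.0 UMIs per 1000000 of the library's UMIs (CPM) in the cKO libraries at ESC, day 3 and day 6, against 30.1, 28.3 and 30.9 CPM in the parental libraries. Tags from the 5′ end can lie outside the deleted part, so these levels do not check the deletion. ESC carried Pou5f1 at 790 CPM in cKO and 682 CPM in parental, and 8 of 9 naive pluripotency markers reached 5 CPM in at least 1 of the ESC libraries. A fibroblast-like cluster held 3 cells of the cKO ESC library, against 124 of the parental one. The mesodermal label of day 6 covers mixed cells, as the clusters described further on show.

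All 4 genes are single-exon genes in the mm10 annotation. Pou3f1 (ENSMUSG00000090125) lies at chr4:124656807-124660655 on the plus strand, and Pou3f2 (ENSMUSG00000095139) on the same chromosome at chr4:22482780-22488366 on the minus strand. Pou3f3 (ENSMUSG00000045515) lies at chr1:42695768-42703176 and Pou3f4 (ENSMUSG00000056854) at chrX:110814280-110817207, both on the plus strand. The noncoding gene Pantr1 runs the other way from a start 925 bases from that of Pou3f3.

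The family likeness is plain in the coding sequence of the POU-specific domain. The lines below give, 5′ to 3′ from the GENCODE M21 transcripts, the 60 coding bases with the most identities to Pou3f1 over the other genes; capitals mark the bases that are not the same in all 4 class III genes and, for Pou2f1, those that differ from Pou3f1.
Pou3f1: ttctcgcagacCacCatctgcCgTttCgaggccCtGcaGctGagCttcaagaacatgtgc
Pou3f2: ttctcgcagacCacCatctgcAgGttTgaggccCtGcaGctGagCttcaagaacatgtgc
Pou3f3: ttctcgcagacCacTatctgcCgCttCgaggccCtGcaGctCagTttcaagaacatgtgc
Pou3f4: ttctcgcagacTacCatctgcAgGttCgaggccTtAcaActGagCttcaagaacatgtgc
Pou2f1: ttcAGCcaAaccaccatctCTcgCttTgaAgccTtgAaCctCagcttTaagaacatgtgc
Of these 60 bases, 50 were identical in all 4 class III genes, and Pou3f2, Pou3f3 and Pou3f4 shared 57, 56 and 54 bases with Pou3f1, against 46 for Pou2f1. Near-identical stretches matter for counting, because a read inside one cannot be placed. The longest exact run shared by any pair of the 4 whole transcripts was 38 bases, between Pou3f1 and Pou3f2. Within the first 500 bases, where 5′ tags concentrate, it was 23 bases, between Pou3f2 and Pou3f3.

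Promoter sequence is shown for the 3 genes with a window in the RefSeq table for GRCm38.p6, namely Pou3f2, Pou3f3 and Pou3f4. The lines give bases before the start, 5′ to 3′ on the gene's strand, with each CCAAT match in capitals. That RefSeq table held no window for Pou3f1.
Pou3f2, chr4:22488367-22488616, minus strand: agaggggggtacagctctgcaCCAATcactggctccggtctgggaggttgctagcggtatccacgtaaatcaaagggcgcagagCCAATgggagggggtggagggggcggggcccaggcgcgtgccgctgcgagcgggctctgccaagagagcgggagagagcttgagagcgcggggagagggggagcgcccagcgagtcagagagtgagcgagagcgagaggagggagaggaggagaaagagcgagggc
Pou3f3, chr1:42695518-42695767, plus strand: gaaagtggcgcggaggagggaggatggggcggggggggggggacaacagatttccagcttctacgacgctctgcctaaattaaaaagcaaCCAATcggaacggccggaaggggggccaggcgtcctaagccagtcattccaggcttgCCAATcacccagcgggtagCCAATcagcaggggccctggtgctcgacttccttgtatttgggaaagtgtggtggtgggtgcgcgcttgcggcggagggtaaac
Pou3f4, chrX:110814129-110814279, plus strand: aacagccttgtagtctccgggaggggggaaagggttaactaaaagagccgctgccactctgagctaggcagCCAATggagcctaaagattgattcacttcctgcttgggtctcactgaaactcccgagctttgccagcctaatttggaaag
Over the full 250 bases before the RefSeq start, of which 151 are printed for Pou3f4, the letters CCAAT occurred 2 times for Pou3f2, 3 times for Pou3f3 and 3 times for Pou3f4, on either strand. CCAAT was chosen after the sequences had been seen. Among 32851 windows of the same length, 33.8% held at least 1 match, 10.1% at least 2 and 2.79% at least 3. The octamer ATGCAAAT, held by 1.6% of windows, and the Sox letters CATTGTT, held by 3.29%, were not in any of the 3 windows on either strand, nor were the Smad letters GTCTAGAC.

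Pou3f1 was the highest member in ESC and at day 3, and in cKO also at day 6. In the cKO libraries it measured 7.55 CPM in ESC, 170 at day 3 and 152 at day 6, against 7.27, 188 and 39.2 CPM in the parental libraries. The genotypes were thus close in ESC and at day 3 and apart at day 6, where the parental library had lost most of the day 3 level and the cKO library had not. From ESC to day 3 the log2 ratio was 4.49 in cKO (interval 4.32 to 4.66) and 4.69 in parental (4.57 to 4.82). From day 3 to day 6 it was -0.16 in cKO (-0.19 to -0.12) and -2.26 in parental (-2.32 to -2.20). The 2 steps share the day 3 libraries of each genotype.

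Pou3f2, known for its use in turning fibroblasts into neurons, followed another course. It measured 3.90 CPM in ESC, 0.321 at day 3 and 2.46 at day 6 in cKO, against 0.706, 0.707 and 57.5 CPM in parental. The parental day 6 library stood above the 5 others. In parental the log2 ratio of day 6 over day 3 was 6.35 (5.96 to 6.76), and in cKO it was 2.94 (2.35 to 3.58) between 2 libraries under 5 CPM.

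Pou3f3, which neural progenitors and cortical neurons express with Pou3f2, was nearly absent before day 6. It measured 0.308, 0.0594 and 0.659 CPM in cKO at ESC, day 3 and day 6, and 0.257, 0.0900 and 24.2 CPM in parental. Its 5 UMIs in the cKO day 3 library and 7 in the parental one were the fewest of any member. In parental, day 6 over day 3 gave a log2 ratio of 8.07 (7.03 to 9.39).

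Pou3f4, whose loss causes deafness in mouse and human, had the fewest UMIs of any member in the parental day 6 library, 618 of them. It measured 0.308, 0.773 and 0.879 CPM in cKO at ESC, day 3 and day 6, against 0.668, 1.02 and 8.92 CPM in parental. Its parental log2 ratio of day 6 over day 3 was 3.14 (2.80 to 3.49). The 2 cKO libraries of day 3 and day 6 and the parental day 3 library could not be ordered for Pou3f4, since the interval of the log2 ratio reached 0 for cKO day 6 over cKO day 3 (-0.35 to 0.71) and for cKO over parental at day 3 (-0.89 to 0.10).

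**Figure D1:**
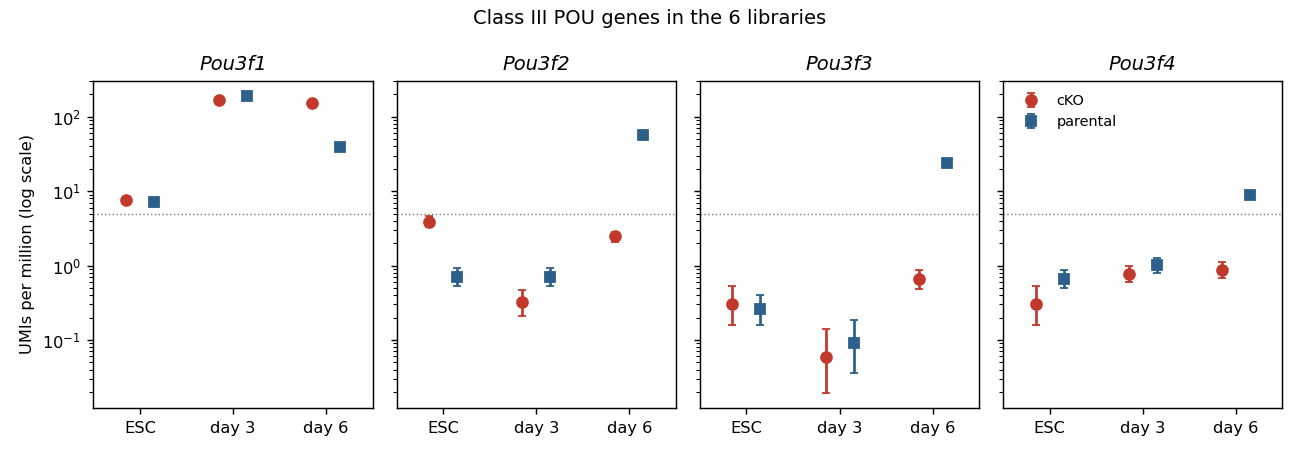
UMIs per 1000000 kept-cell UMIs (log axis) of each class III POU gene at ESC, day 3 and day 6, with cKO libraries as circles and parental libraries as squares; bars are 95% Poisson intervals and the dotted line marks 5 CPM. Pou3f1 is near 7 CPM in both ESC libraries and at 152 CPM in cKO against 39.2 CPM in parental at day 6, while the other 3 genes pass 5 CPM only in the parental day 6 library.

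Across the genotypes, a gene was called when its libraries differed at least 2-fold with at least 5 CPM in the higher one. At day 6, 1 member was called higher in cKO and 3 were called lower, so 4 of 4 were called, against 12.4% of the 10065 genes that passed the level (5.63% higher and 6.76% lower). For Pou3f1 the log2 ratio, cKO over parental, was 1.96 (1.90 to 2.02), or 3.88-fold higher. Pou3f2 stood at -4.55 (-4.78 to -4.32), Pou3f3 at -5.20 (-5.66 to -4.77) and Pou3f4 at -3.34 (-3.75 to -2.96). In the ranking of all 10065 genes, 70 genes had a higher ratio than Pou3f1, and 34, 22 and 74 genes had a lower ratio than Pou3f2, Pou3f3 and Pou3f4. The median log2 ratio over all tested genes of a chromosome was -0.16 for chromosome 1, which carries Pou3f3 and Pou2f1, 0.02 for chromosome 4 and 0.08 for chromosome X.

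In ESC and at day 3 no member was called, against 4.05% of 9224 genes in ESC (1.4% higher and 2.66% lower) and 0.852% of 8917 at day 3 (0.258% higher and 0.594% lower), and Pou3f1 alone was high enough to be. Its log2 ratio was 0.06 in ESC (-0.15 to 0.26) and -0.15 at day 3 (-0.18 to -0.12), where the median of all genes was -0.06. Pou3f2 was higher in the cKO ESC library, with 152 UMIs against 55 in the larger parental library, and a log2 ratio of 2.47 (2.01 to 2.94), but under 5 CPM in both. At day 3 the same gene stood at -1.14 (-1.86 to -0.45) on 27 cKO and 55 parental UMIs. Pou3f4 in ESC stood at -1.12 (-2.16 to -0.19) on 12 cKO and 52 parental UMIs, and at -0.65 once cells with UMIs of at least 3 fibroblast genes were left out; the fibroblast-like cluster held 18 of those 52 UMIs.

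**Figure D2:**
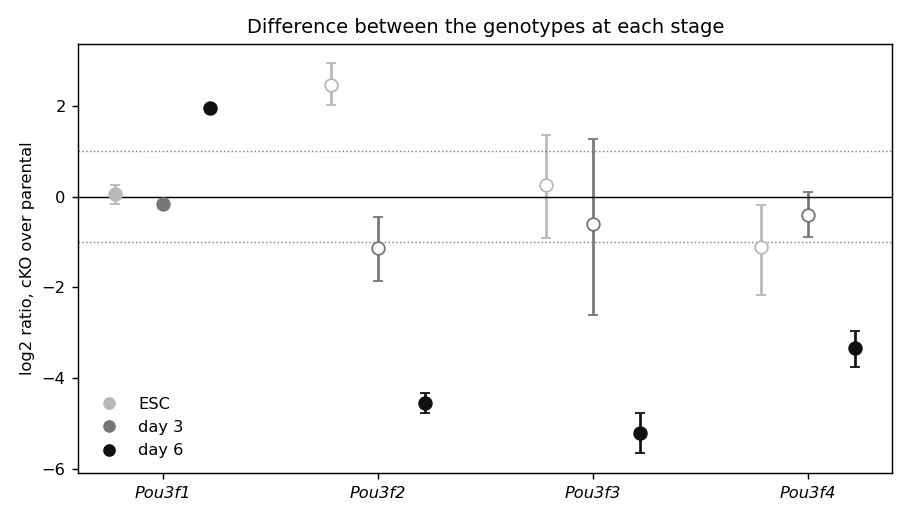
Log2 ratio of the cKO over the parental library for each class III POU gene at ESC, day 3 and day 6 (light to dark); bars are 95% intervals of counting error, open points have both libraries under 5 CPM, and dotted lines mark 2-fold. At day 6 Pou3f1 lies at 1.96 and Pou3f2, Pou3f3 and Pou3f4 lie between -5.20 and -3.34.

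Within a genotype the steps between stages were larger for the genome as a whole, so the members' calls stand against a higher background. From ESC to day 3, Pou3f1 was called higher in cKO, where 21.9% of genes were called (8.73% higher and 13.1% lower), and in parental, where 18.3% were (7.56% higher and 10.7% lower). From day 3 to day 6, Pou3f2, Pou3f3 and Pou3f4 were called higher and Pou3f1 lower in parental, where 23.7% of genes were called, 18.3% higher and 5.41% lower. In cKO no member was called at this step, where 30.8% of genes were (23.0% higher and 7.72% lower).

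Pou3f1 was found in a larger share of cells at day 3 than at day 6 in both genotypes. To compare shares of cells, every cell was thinned to 10000 UMIs, and shallower cells were left out (558 cKO and 371 parental cells at day 6, and at most 140 per library before). At day 3, 59.98% of cKO cells and 61.3% of parental cells had a Pou3f1 UMI, against 7.5% and 6.29% in ESC. Without thinning these day 3 shares were 87.6% and 82.9%, and the positive cells held a median of 10 and 12 UMIs. At day 6 the thinned share was 36.3% in cKO (33.4 to 39.2) and 12.9% in parental (11.0 to 14.9). The 10 cells richest in Pou3f1 held 13.0% of its UMIs in the cKO day 6 library and 31.8% in the parental one, where a single cell held 240 of 2715 UMIs. That cell had 232628 UMIs in all, and without it the parental level was 35.9 CPM.

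At day 3 nearly all cells held Pou5f1, whether or not they held Pou3f1. Among thinned cells with a Pou5f1 UMI, 60.6% of 948 in cKO and 61.4% of 821 in parental had Pou3f1. Among those without, 47.7% of 44 in cKO (32.5 to 63.3) and 57.7% of 26 in parental (36.9 to 76.7) had it, and these intervals hold the shares of the cells with Pou5f1. At day 6 only 35 cKO and 118 parental cells had Pou5f1, and 25.7% and 19.5% of these had Pou3f1, against 36.6% and 12.1% of the cells without it. The intervals of cells with and without Pou5f1 overlapped at day 6 in cKO (12.5 to 43.3 and 33.7 to 39.6) and in parental (12.8 to 27.8 and 10.2 to 14.2).

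At 10000 UMIs the other 3 genes were found in few cells outside the parental day 6 library, with the highest share that of Pou3f2 in ESC, at 2.08% in cKO (1.003 to 3.80) and 0.398% in parental (0.129 to 0.927). Without thinning, 13.6% of cKO ESC cells (10.8 to 16.8) and 2.65% of parental ESC cells (1.87 to 3.64) had Pou3f2. In the cKO day 6 library 1.47% of thinned cells had Pou3f2, 0.458% had Pou3f3 and 1.01% had Pou3f4. In the parental one 32.0% had Pou3f2 (29.3 to 34.8), 20.7% had Pou3f3 (18.4 to 23.1) and 10.4% had Pou3f4 (8.70 to 12.3). Without thinning the day 6 shares were 1.76%, 2.06% and 2.73% in cKO and 36.4%, 29.6% and 20.4% in parental. Cells of the surface epithelium-like clusters, described next, were read at the same depth for comparison. Of 658 such cKO cells, 0.304% had Pou3f2, 0.456% had Pou3f3 and 0.760% had Pou3f4, and of 196 such parental cells, 0 had Pou3f2 and 0 had Pou3f3, which allows a share of up to 1.53%, and 1.02% had Pou3f4. The cKO library's shares of Pou3f3 and Pou3f4 lay within the intervals of those cKO cells (0.094 to 1.33 and 0.247 to 1.76). Those 658 cells are part of the library's 1092 thinned cells, so the overlap cannot show that its UMIs are background. Of the positive cells, 2 of the 5 for Pou3f3 and 4 of the 11 for Pou3f4 were among 12 cells of the neural clusters described further on. The library's share of Pou3f2 lay above (0.037 to 1.09), and 11 of its 16 positive cells were in those clusters. Median depth before thinning was 58205 UMIs in those cKO cells and 59414 in those parental cells, against 30925 UMIs over the whole cKO library and 36219 over the whole parental one.

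Cells of both genotypes were clustered together at each stage without the 4 genes. At day 6, 14 clusters were found, and those with enough of their markers were named. The 2 surface epithelium-like clusters carried 9 of 9 markers, such as the keratin Krt8 and the adhesion gene Cdh1. They were led by Tmem54, Cited1, Mpzl2, Krt8 and Acta1 (cluster 0, 299 cKO and 136 parental cells) and by Cxcl14, Slc39a8, Bmp3, Ahnak2 and Cd9 (cluster 2, 376 and 63 cells). The neural progenitor-like clusters were led by Fabp7, Id4, Pantr1, Rfx4 and Sox3 (cluster 6, 6 cKO and 307 parental cells) and by Hoxb9, Hoxc8, Fam181b, Hoxb5os and Hoxaas3 (cluster 12, 2 and 187 cells). Cluster 12 carried 8 of 11 neural progenitor markers and also 7 of 10 young neuron markers, so its name is less firm. A young neuron-like cluster was led by D930028M14Rik, Nhlh2, Nhlh1, Tubb3 and Btbd17 (cluster 7, 6 and 83 cells).

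Pou3f2, Pou3f3 and Pou3f4 were found almost wholly in the neural clusters of the parental library. In the cKO library 14 cells fell in the neural progenitor-like and young neuron-like clusters, together called the neural clusters here, and held 76.2% of the library's Pou3f2 UMIs, 28.9% of its Pou3f3 UMIs and 28.3% of its Pou3f4 UMIs. In the parental library 577 cells did, and held 97.4%, 96.7% and 93.2%. Pou3f2 was highest in the young neuron-like cluster, at 559 CPM in its 6 cKO cells (441 to 699) and 287 CPM in its 83 parental cells (264 to 313). In neural progenitor-like cluster 6 it measured 116 CPM in the 6 cKO cells (81.0 to 160). The parental cells there measured 174 CPM (167 to 181). With 6 cKO cells in each of these clusters, the values describe those cells and do not give a genotype difference. Of the thinned cells of cluster 6, 5 of 5 in cKO and 214 of 288 in parental had Pou3f2. The intervals of these shares overlapped (47.8% to 100% and 68.9% to 79.3%). Without thinning, 83.3% of the 6 cKO cells had it, against 91.4% of all 313 cells of the cluster. In the Hox-led cluster 12 Pou3f2 measured 82.0 CPM in the parental cells.

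Pou3f3 took a different order among the same parental clusters. It measured 91.7 CPM in cluster 6 (86.4 to 97.3), 65.9 CPM in the young neuron-like cluster (54.9 to 78.4) and 25.7 CPM in cluster 12 (23.2 to 28.5). Pou3f4 followed the order of Pou3f2, with 45.5 CPM in the young neuron-like cluster (36.4 to 56.1), 26.7 CPM in cluster 6 and 11.1 CPM in cluster 12. The Hox-led cluster was thus the lowest of the 3 for each of these genes. In the cKO cells Pou3f3 measured 6.42 CPM in cluster 6, on 2 UMIs (0.778 to 23.2), and 72.6 CPM in the young neuron-like cluster, on 10 UMIs (34.8 to 134). The different order of Pou3f3 depended on the clustering. Over both genotypes, all 3 genes were highest in the same young neuron-like cluster at resolution 0.4. At resolution 1.2 they were highest in the same neural progenitor-like cluster. With 4000 variable genes, Pou3f3 was highest in a neural progenitor-like cluster and Pou3f2 and Pou3f4 in a young neuron-like one.

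Over the neural clusters together, Pou3f2 and Pou3f4 did not show the large difference of the whole libraries, while Pou3f3 and Pou3f1 differed at least 2-fold in the same direction. Pou3f2 measured 210 CPM in the 14 cKO cells (175 to 250) and 134 CPM in the 577 parental cells (130 to 138), a log2 ratio of 0.65 (0.38 to 0.90). Pou3f4 measured 27.9 CPM in cKO (16.3 to 44.7) and 19.9 CPM in parental (18.3 to 21.6), which overlap. Pou3f3 was lower in cKO, at 21.3 CPM (11.4 to 36.5) on 13 UMIs, against 56.1 CPM (53.4 to 58.9) in parental, a log2 ratio of -1.39 (-2.31 to -0.62). Pou3f1 measured 67.3 CPM in cKO (48.3 to 91.3) and 12.7 CPM in parental (11.4 to 14.0), a log2 ratio of 2.41. Of its 41 cKO UMIs 31 came from 1 cell, without which the cKO level was 20.4 CPM (9.80 to 37.6). With 14 cells these cKO values describe those cells. Of the 14, 6 were young neuron-like, against 83 of the 577 parental cells, so the mix of clusters differed too.

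Outside the neural clusters the 3 genes were low in both genotypes. Pou3f2 measured 0.591 CPM in the cKO cells and 2.55 CPM in the parental cells there, Pou3f3 0.473 and 1.36 CPM, and Pou3f4 0.635 and 1.04 CPM. With both libraries under 5 CPM none of the 3 could be called, while their log2 ratios were -2.11 (-2.68 to -1.57), -1.53 (-2.20 to -0.87) and -0.71 (-1.36 to -0.06). Part of the parental remainder of Pou3f2 lay in an unnamed cluster of low depth (cluster 11, 8 cKO and 83 parental cells, led by Fabp7, D930028M14Rik, AY036118, Sst and Scrt2), at 84.2 CPM in its parental cells on 36 of the 103 UMIs. This cluster carried 7 of 11 neural progenitor markers and 5 of 10 young neuron markers. With it left out as well, Pou3f2 measured 0.591 CPM in cKO and 1.68 CPM in parental, a log2 ratio of -1.50 (-2.11 to -0.92), Pou3f3 stood at -1.40 (-2.09 to -0.74) and Pou3f4 at -0.54 (-1.22 to 0.15). Pou3f1 was called outside the neural clusters, at 153 CPM in cKO and 58.2 CPM in parental with a log2 ratio of 1.39 (1.33 to 1.46). These comparisons were added after the data had been seen.

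Pou3f1 was found mainly in the surface epithelium-like clusters at day 6, which held 86.2% of its UMIs in cKO and 53.7% in parental. Of the UMIs of all genes, these clusters held 45827022 of 68286951 in cKO and 13973205 of 69274012 in parental. The 86.2% and 53.7% thus stand on unlike base shares and do not show a stronger concentration in cKO. Pou3f1 measured 196 CPM over the 675 cKO cells of these clusters (192 to 200) and 104 CPM over the 199 parental cells (99.1 to 110). Most of the cKO cells were in cluster 2, at 226 CPM against 34.5 CPM for its parental cells, and most of the parental cells were in cluster 0, at 167 CPM in cKO against 127 CPM in parental. At 10000 UMIs, 47.1% of the cKO cells (43.2 to 51.0) and 35.2% of the parental cells (28.5 to 42.3) had a Pou3f1 UMI.

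Pou3f1 was not confined to epithelium-like cells. In all other clusters together it measured 63.6 CPM in cKO (60.4 to 67.0) and 22.7 CPM in parental (21.5 to 24.0), a log2 ratio of 1.49 (1.38 to 1.60), which still passed the call. With the neural clusters left out as well, it measured 63.5 CPM in cKO and 33.8 CPM in parental, a log2 ratio of 0.91 (0.79 to 1.03), which did not. It was higher in cKO in 6 of the 6 clusters with at least 20 cells of each genotype, with log2 ratios from 0.40 in cluster 0 to 2.71 in cluster 2, and the interval reached 0 in 1 of these, cluster 5. Only cluster 2 passed 2-fold, and the next ratio was 0.77, in cluster 3. Of the 1429 cKO UMIs outside the epithelium-like clusters, 531 lay in unnamed cluster 1, at 164 CPM in cKO and 116 CPM in parental. That cluster was of low depth, with a median of 4715.5 UMIs per cell. In neural progenitor-like cluster 6 Pou3f1 measured 13.2 CPM over the parental cells, and in the 8 blood-like cells it had no UMI. In the unnamed cluster 4, led by Col3a1, Tnc, Nppa, Ptgds and Ctla2a, the parental level of 34.4 CPM included the cell with 240 UMIs and was 20.7 CPM without it. Cluster 4 carried 7 of 8 somite markers, 6 of 7 smooth muscle and mesenchyme markers and 5 of 9 fibroblast markers. It stayed unnamed because its 10 leading genes held 2 fibroblast markers and 1 somite marker.

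**Figure D3:**
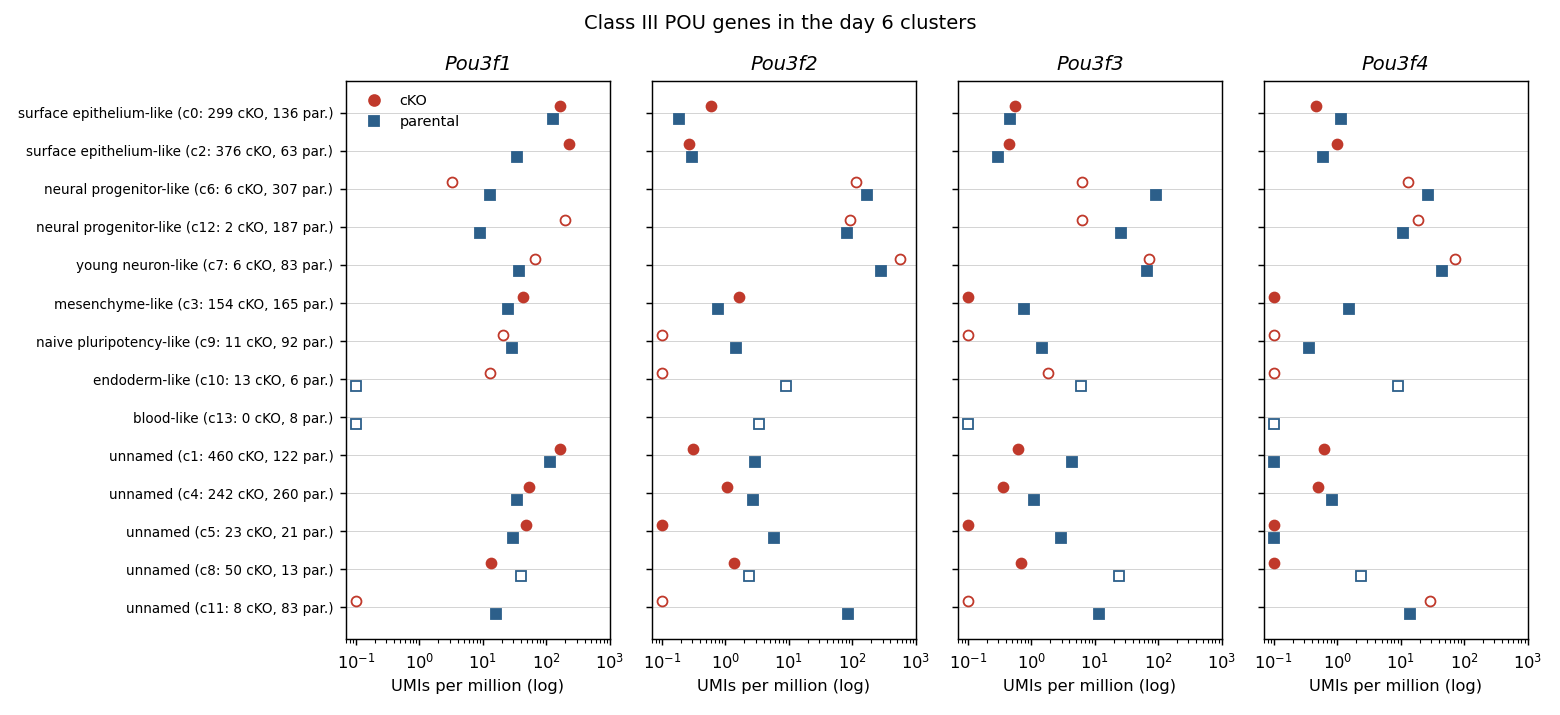
UMIs per 1000000 (log axis) of each class III POU gene in the 14 day 6 clusters, with cKO cells as circles above parental cells as squares; open symbols are groups of fewer than 20 cells, and levels of 0.1 or less are drawn at 0.1. Pou3f1 is highest in surface epithelium-like cluster 2 in cKO, at 226 CPM, and Pou3f2, Pou3f3 and Pou3f4 are high in clusters 6, 7 and 12, which hold 14 cKO and 577 parental cells, with Pou3f2 also high in the parental cells of cluster 11.

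The direction of the Pou3f1 difference within clusters was not the same at each stage. At day 3 it was higher in cKO in 1 of 6 clusters with at least 20 cells of each genotype and lower in 5, with log2 ratios from -1.16 to 0.50, and the interval reached 0 in 2 of these 5. In ESC it was higher in cKO in 5 of 6, but only the sixth had an interval that left out 0. That cluster was the ESC surface epithelium-like one, at 4.65 CPM in cKO and 35.5 CPM in parental, and 41 of its parental UMIs came from 1 cell, without which the parental level was 25.0 CPM.

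**Figure D4:**
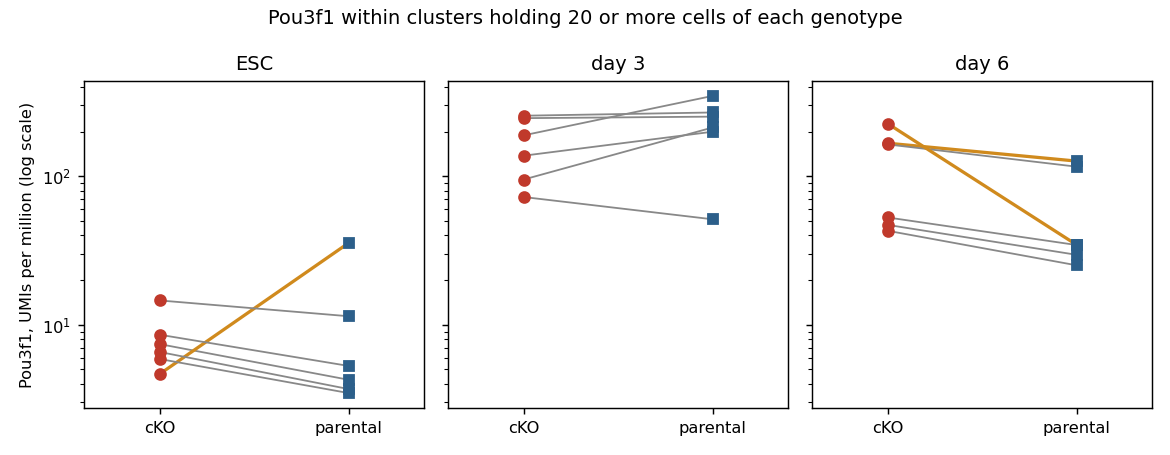
Pou3f1 UMIs per 1000000 (log axis) in cKO cells (left) and parental cells (right) of the same cluster at each stage; lines join the 2 genotypes of a cluster, thick orange lines are surface epithelium-like clusters. At day 6 all 6 lines are higher on the cKO side, while 5 of 6 are lower there at day 3.

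The day 3 cells offered an early view of Pou3f2 and Pou3f4, while Pou3f3 had 1 UMI in the cluster described here. A young neuron-like cluster of 18 cKO and 23 parental cells, led by Mfap4, Neurod4, Ebf2, Fabp7 and Slc1a2, held 68.3% of all Pou3f2 UMIs of the stage and 25.7% of the Pou3f4 UMIs. Pou3f2 measured 6.95 CPM in its cKO cells (3.59 to 12.1) and 18.7 CPM in its parental cells (13.6 to 25.1). Without the richest cell of each genotype, with 5 of 12 and 12 of 44 UMIs, these levels were 4.36 CPM in cKO and 14.0 CPM in parental. Pou3f1 measured 376 CPM in cKO (347 to 406) and 381 CPM in parental there (356 to 407), among its highest day 3 levels beside 350 CPM in the cKO cells of cluster 10 and 348 CPM in the parental cells of cluster 0. Of its 649 cKO UMIs in this cluster 148 came from 1 cell, without which the cKO level was 307 CPM. Of the 34 parental Pou3f4 UMIs in this cluster, 28 came from 1 cell. With clusters rebuilt at resolution 0.4, Pou3f2 was highest in an unnamed cluster of 21 cKO and 207 parental cells, at 2.63 CPM. Pou3f4 was then highest in a fibroblast-like cluster of 5 cKO and 4 parental cells, at 3.47 CPM. At resolution 1.2 and with 4000 variable genes, both were highest in a young neuron-like cluster.

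Single cells of the parental day 6 library often held several of the neural members together. Of the thinned cells with Pou3f3, 76.5% also had Pou3f2, and of those with Pou3f4, 77.1% had Pou3f2. Of the cells with Pou3f2, 49.5% had Pou3f3 and 25.0% had Pou3f4, and 59 cells had the 3 neural members without Pou3f1. For comparison, of all thinned parental cells of the neural clusters, 65.9% had Pou3f2, 43.4% had Pou3f3 and 21.5% had Pou3f4. Co-detection beyond membership of these clusters was not tested. Pou3f1 stood apart, with 11.9% of its cells also holding Pou3f2. In the cKO library 383 of 1092 thinned cells had Pou3f1 and no other member, against 128 of 1175 in parental. These shares depend on depth, since a cell with few molecules of a gene can give none at 10000 UMIs, and doublets were not removed.

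**Figure D5:**
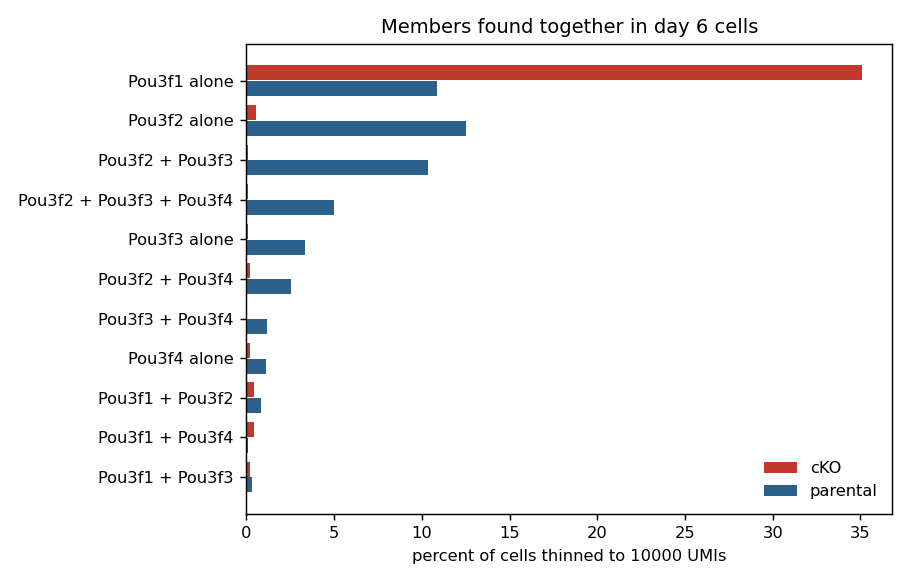
Percent of day 6 cells, thinned to 10000 UMIs, in which exactly the named class III POU genes had a UMI, with cKO bars above parental bars; combinations above 0.3% in either library are drawn. After cells with no member, Pou3f1 alone is the commonest in cKO, at 35.1%; in parental, Pou3f2 alone stands at 12.5%, Pou3f1 alone at 10.9% and Pou3f2 with Pou3f3 at 10.4%.

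Genes found in the same cells were ranked by the ratio of their detection in cells with and without a member, for the library where the member was highest. Pou3f2-positive parental day 6 cells held Pax7, a gene of the dorsal neural tube, in 27.7% against 3.25% of the other cells, and Miat, Zfp536, C130071C03Rik and Pou3f4 completed the first 5. For Pou3f3 the first 5 were Pou3f4, C130071C03Rik, the growth factor receptor gene Fgfr3, St8sia1 and Pax7. For Pou3f4 they were Tbc1d9, Adgrg1, AC119264.1, Pou2f2 and St8sia2. For Pou3f1, in the day 3 parental cells, Rrm2b came first, at 27.9% against 15.5%, then Trio, the early neural gene Sox3, Foxo1 and Car4. In the cKO day 6 cells, a library chosen after its values were seen, the first gene for Pou3f1 was Gng3, at 27.3% against 8.19%, then Sh3gl3, Cpe, Nkain4 and Prph.

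Over the 6 libraries, the genes whose profile was most like that of each member were ranked by the root mean square difference of centred log2(CPM + 1) among 6845 genes. For Pou3f1 these were Tmem54, Kcnk1, Fgf8, Esrp1 and Cthrc1, at differences of 0.28 to 0.64. Pou3f2 was nearest to Pou3f3, followed by Sox21, the endothelin receptor gene Ednrb, Fez1 and Olfm2. For Pou3f3 they were the haemoglobin gene Hba-a1, D930028M14Rik, Ednrb, Sox21 and Nhlh2, and for Pou3f4 Fzd3, Hipk2, Grb10, Msi1 and Stox2. Hba-a1 was among the leading genes of the 8 blood-like cells of the parental day 6 library, so a like profile over libraries does not place 2 genes in the same cells.

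Most tested genes on the lists of other POU genes, Sox partners and reported targets were lower in cKO at day 6 too, where 6.76% of all genes were. Of the 11 POU genes outside class III, 3 passed the level at day 6 and 2 were lower in cKO: Pou2f2, at 0.674 CPM in cKO and 7.25 CPM in parental, and Pou5f1, at 8.57 and 27.8 CPM. Pou2f3, a POU gene known from epidermis and chemosensory cells, was higher in cKO in ESC, at 21.5 CPM against 3.60 CPM, and at day 3, at 14.2 CPM against 1.62 CPM. Of the 7 Sox genes known as POU partners, 6 passed and 5 were lower in cKO at day 6. Sox1, an early neural gene, measured 0.879 CPM in cKO and 29.8 CPM in parental, Sox3 1.77 and 41.5 CPM, and Sox21 2.52 and 25.4 CPM. The sixth, Sox4, measured 402 CPM in cKO and 371 CPM in parental. Sox1, Sox3 and Sox21 are also on the neural progenitor list.

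The list of reported targets and neural partners had 16 symbols, of which 15 were in the data, since Tbr2 is another name of Eomes. Of these 15 genes, 9 passed at day 6 and 8 were lower in cKO. The median log2 ratio was -1.75, beside -0.05 over all genes. Pax6, a regulator of neural progenitors, had a log2 ratio of -6.76, and Fabp7, a lipid-binding protein of radial glia, one of -2.79. Of this list, 4 genes are also neural progenitor markers (Pax6, Nes, Fabp7 and Zic1). Pantr1, the divergent neighbour of Pou3f3, measured 0.805 CPM in cKO and 58.5 CPM in parental. At day 3, where 0.258% of all genes were called higher and 0.594% lower, the same list had 7 genes past the level and 1 called in each direction, with the Notch ligand gene Dll1 higher in cKO at a log2 ratio of 1.23 and Eomes, a T-box gene, lower at -1.04.

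The markers of the neural and epithelial cells moved with these results. Of the 11 neural progenitor markers, 10 passed at day 6 and 10 were lower in cKO, against 6.76% of all genes, with a summed level of 92.7 CPM in cKO and 1258 CPM in parental and no marker at 0. Of the 9 surface epithelium markers, 9 were higher in cKO, against 5.63% of all genes, with a summed level of 5683 CPM against 2066 CPM. Blood and endothelium markers summed to 3.73 CPM in cKO and 232 CPM in parental, and Hba-x, Hbb-bh1 and Gata1 were at 0 in cKO. As given above, Pou3f1 passed the call at day 6 without the surface epithelium-like clusters and without the neural clusters, but not without both. The other 3 genes fell under the level for a call without the neural clusters. Those clusters held 97.4%, 96.7% and 93.2% of the parental UMIs of Pou3f2, Pou3f3 and Pou3f4, so this outcome was fixed by leaving them out and tests no cause. The remaining log2 ratios, on levels under 5 CPM, were -2.11, -1.53 and -0.71.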

How the data were processed

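Single-cell libraries of 6 groups were analysed, 1 library each. Per the file headers the authors ran Cell Ranger 3.1.0, and per the submitters' processing notes the genome was mm10; the deposited values are whole-number UMI counts per gene and barcode. Doublets were left in, because Scrublet marked only 38 kept cells, 1 of them at day 6; leaving them out was an alternative. Counts of kept cells were summed per library and divided by the total to give CPM, with exact Poisson intervals, and ratios of 2 libraries have exact conditional binomial intervals. Shares have Clopper-Pearson intervals; a share of 0 allows up to 3 counts of the total. Intervals cover counting error only. Clustering used scanpy 1.11.5 (2000 variable genes, 30 components, 15 neighbours, Leiden resolution 0.8), per stage, on cells of both genotypes without the 4 genes. A name needed at least 3 and 50% of a list's markers, or 70% where another list also had 3 or the depth was low, a limit set after the data were seen; others stayed unnamed. A cluster took the name of the list with the most markers, unless another list had more markers among the cluster's 10 leading genes. A cluster of low depth with no marker of its list among these 10 genes also stayed unnamed. Clusters rebuilt here may differ from the authors'. TMM factors came from edgeR 4.0.16. Named genes beside the members were up to 3 per pathway list with the largest ratio, the 5 most alike profiles (at least 20 CPM in 1 library), the 5 genes most often found with a member (in at least 20% of its cells) and the leading 5 of each cluster; Sox4 and Pou5f1 in ESC were named after their values were seen. One item that the rule names is not reported here. The calling step was tested on simulated data. The members and lists were chosen with earlier results of these data known. Alternatives were 2 scalings, 3 other cell filters, equal weight per cell, other level limits, and other clustering and thinning settings.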

Additional observations from a re-analysis of the deposited data

Results flagged for a closer look

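The difference between the genotypes changed direction between stages for 2 of the 4 genes, with counting intervals that left out 0 on both sides. Pou3f1 had a log2 ratio of cKO over parental of -0.15 at day 3 and 1.96 at day 6. Pou3f2 had a log2 ratio of 2.47 in ESC, -1.14 at day 3 and -4.55 at day 6. With 1 library per group, the difference between stages was not tested. TMM scaling moved the day 3 value of Pou3f1 to -0.04. The ESC and day 3 values of Pou3f2 rest on levels under 5 CPM and on few cells. The 10 cells richest in Pou3f2 held 47.4% of its UMIs in the cKO ESC library and 50.9% in the parental one. At day 3 they held 85.2% in cKO and 87.3% in parental. The counting intervals do not cover such concentration in a few cells.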

How the results depend on the processing

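No paired analysis was possible because each group held 1 library, and for the same reason no replicate could be left out. The count of 3 members lower and 1 higher in cKO at day 6 was met under every planned setting for the higher member, and for the lower ones except that Pou3f4 missed a level of 20 CPM. Planned settings gave day 6 log2 ratios of 1.93 to 2.04 for Pou3f1, -4.92 to -4.47 for Pou3f2, -5.56 to -4.93 for Pou3f3 and -4.00 to -3.27 for Pou3f4. Without the neural progenitor-like and young neuron-like clusters, added after the data were seen, 0 members were called lower, with both libraries under 5 CPM, and the same 0 was found without every cluster that held 50% of either marker list. The parental UMIs of Pou3f2, Pou3f3 and Pou3f4 lay almost wholly in those clusters, so this loss of calls followed from leaving them out. With no minimum level, members under 5 CPM were called too. Between the genotypes, 1 was higher and 1 lower in cKO in ESC, and 1 was lower in cKO at day 3. From ESC to day 3, Pou3f4 was higher and Pou3f2 and Pou3f3 were lower within cKO, and 1 member was lower within parental. From day 3 to day 6, 2 members were higher within cKO. All genes called in either direction numbered 374 in ESC, 76 at day 3 and 1247 at day 6 between the genotypes. They were 116, 26 and 568 at a 20 CPM minimum and 2629, 1680 and 4312 with none. For the steps they were 1020 (ESC to day 3) and 1652 (day 3 to day 6) in cKO and 796 and 1132 in parental at 20 CPM, and 5878, 7405, 5830 and 6501 with no minimum. Leaving out ESC cells with at least 3 fibroblast genes gave 214 in ESC. Before day 6, planned settings gave -0.12 to 0.35 for Pou3f1 in ESC and -0.40 to 0.20 for Pou3f4 at day 3. TMM scaling put the day 3 ratio of Pou3f1 at -0.04 and moved the median of all genes there from -0.06 to 0.04; from day 3 to day 6 it moved that median from 0.26 to -0.03 in cKO and from 0.22 to -0.03 in parental. The share of called genes that were higher was 30.3% by CPM and 47.8% by TMM at day 3 between the genotypes, 74.9% and 56.4% from day 3 to day 6 in cKO, and 77.2% and 62.1% in parental. The sign of Pou3f4 in ESC turned to 0.85 when barcodes needed 2000 genes and 5% or less mitochondrial RNA, which kept 86 cKO and 457 parental cells; the cause was not tested. Pou3f1 was highest at day 6 in a cluster led by Isg15 and Ltb at resolution 1.2 and in a mesenchyme-like cluster with 4000 variable genes, while 3 members were highest in neural or neuron-like clusters at both of these settings and at resolution 0.4. Depth limits Pou3f3 and Pou3f4 before day 6, at 5 to 79 UMIs per library.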
